A study of Mus musculus with 11 samples.

Results

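The 10 genes described here encode the 5 subunits of the transcription factor NF-kB (Nfkb1, Nfkb2, Rel, Rela and Relb) and 5 of its inhibitor proteins (Nfkbia, Nfkbib, Nfkbie, Nfkbiz and Bcl3). They were taken by symbol from a table of 52143 genes, and all 10 were found and passed the filter on low values. RAW cells are a mouse macrophage-like tumour line that is widely used to study the response to lipopolysaccharide (LPS), a bacterial cell wall component sensed through Toll-like receptor 4. The study asked how Girdin (GIV, gene Ccdc88a), a cytoplasmic regulator of trimeric G proteins, shapes that response. The groups used here are RAW cells with a hairpin against GIV (shGIV) after 5 h of LPS at 100 ng/ml (3 libraries), control hairpin cells (shC) after the same treatment (1 library, replicate 2), shGIV cells at 0 h (3 libraries) and shC cells at 0 h (2 libraries, replicates 1 and 3). Another 0 h library of shC cells, replicate 2, is shown apart, and shC with LPS replicate 3 was not analysed here. All groups carry a hairpin, so none is an unmodified parent line, and the labels name neither the hairpins nor whether each line was 1 clone. Nothing in the labels says that replicates came from different cultures. A p-value here therefore covers the spread between these libraries, which may be technical.

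NF-kB proteins work as dimers. Rela, Rel and Relb carry a transactivation domain, whereas the products of Nfkb1 (p105, cut to p50) and Nfkb2 (p100, cut to p52) do not, and need a partner or a nuclear cofactor to switch genes on. In resting cells the cytoplasmic inhibitors (IkB-alpha from Nfkbia, IkB-beta from Nfkbib and IkB-epsilon from Nfkbie) hold the dimers outside the nucleus, and the IkB kinase complex marks them for destruction when Toll-like receptor 4 is engaged. Several of these genes are themselves NF-kB targets in macrophages, so that new inhibitor is made after each pulse of activity. Nfkbiz (IkB-zeta) and Bcl3 are nuclear members of the inhibitor family that bind p50 or p52 and act on selected promoters, and Nfkbiz is known as an early LPS response gene needed for part of the secondary response. Transcript levels say nothing of where the proteins are or how active they are.

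Levels are TPM values (transcript abundance scaled per length to a fixed total), and log2 changes are of TPM + 1. TPM keeps no read total, so the depth of each library is unknown, and the labels give only an approximate number of reads. The targeted transcript Ccdc88a was at 3.08, 2.62 and 3.39 TPM in the 3 shGIV libraries with LPS, against 5.77 TPM in the shC library, and at 6.93, 5.31 and 5.59 TPM in shGIV cells at 0 h, against 10.0 and 7.69 TPM in shC cells. The groups did not overlap in either state, but 48.7% of all genes did not overlap lower in shGIV cells with LPS, and 12.7% at 0 h. Neither Ccdc88a difference passed the test (log2 -0.75 ± 0.19 with LPS, limma adjusted p = 0.0681, and -0.50 ± 0.15 without, limma adjusted p = 0.232, ± SE). In the library shown apart, the annotated microRNA gene Mir6236 took 57.8% of all TPM and protein-coding genes 7.81%, against 3.79% to 8.78% and 74.1% to 81.7% in the other 9 libraries. Because of this composition, that library is left out of every value below unless named. All 10 NF-kB genes were lower in it than in any other library, from 1.16 TPM for Nfkbiz to 13.5 TPM for Nfkbia. Of 8 macrophage markers 7 reached 1 TPM (Mertk did not), with a summed level of 11940 to 12520 TPM in shGIV and 14420 TPM in shC cells with LPS, and 18060 to 18620 TPM in shGIV and 19220 to 19700 TPM in shC cells at 0 h. Lyz2 made up most of that sum, and single markers went both ways. Csf1r was at 41.8 to 44.6 TPM in shGIV and 109 TPM in shC cells with LPS and 396 to 414 TPM in shGIV and 459 and 541 TPM in shC cells at 0 h. Adgre1 was at 96.1 to 103 TPM in shGIV and 168 TPM in shC cells with LPS and 39.6 to 43.6 TPM in shGIV and 60.5 and 73.1 TPM in shC cells at 0 h. At 0 h Itgam and Lyz2 were also lower in shGIV cells without overlap, whereas Cd68, Spi1 and Cd14 overlapped between the lines. With LPS all of these were lower in the shGIV libraries than in the shC library. None of the T cell, B cell, fibroblast or epithelial markers reached 1 TPM. Of 4 neutrophil markers S100a8 did, at 13.2 to 17.3 TPM in shGIV and 16.0 TPM in shC cells with LPS, and 1.07 to 1.20 TPM in shGIV and 1.28 and 3.80 TPM in shC cells at 0 h, while Ly6g, Mpo and Elane stayed at or near 0. Of 3 endothelial markers Pecam1 reached 1.05 TPM in 1 shGIV library with LPS, and the summed level of the list was 1.12 to 2.28 TPM in shGIV and 1.47 TPM in shC cells with LPS and 0.573 to 0.672 TPM in shGIV and 0.607 and 0.918 TPM in shC cells at 0 h. In RNA pooled from many cells, fewer cells of a type and less RNA per cell cannot be told apart.

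After 5 h of LPS, 9 of the 10 genes rose in both lines and none fell by limma, also at an unadjusted p under 0.05, with Rela the exception. With the library shown apart in the fit, 3 of the 10 were called higher in shGIV cells and 2 in shC cells, where 5.64% and 3.07% of all genes were. In that fit the median log2 change of the 10 was 1.86 in shGIV and 2.82 in shC cells. Over all 13711 genes tested by limma without that library, LPS raised 15.8% and lowered 59.7% in shGIV cells, and raised 14.8% and lowered 44.1% in shC cells. In the fit without it the 10 genes had a median log2 change of 1.86 in shGIV cells and 1.92 in shC cells, where the median of all genes was -0.54 and -0.40. TPM values add up to the same total in every library, so a strong rise of some transcripts lowers the rest. With TMM scaling the median of all genes moved to -0.0032 in shGIV and 0.0045 in shC cells, the share called higher and lower became 34.1% and 33.0% in shGIV cells and 28.4% and 24.9% in shC cells, and the median of the 10 genes was 2.51 in shGIV and 2.41 in shC cells. With quantile normalization those shares were 27.3% and 40.7% in shGIV cells and 21.7% and 31.8% in shC cells. In the fit on unscaled TPM, the median of the 10 genes stood 2.40 above that of all genes in shGIV and 2.32 above it in shC cells. With TMM scaling it stood 2.51 and 2.40 above, and with quantile normalization 2.26 and 2.15 above.

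**Figure D1:**
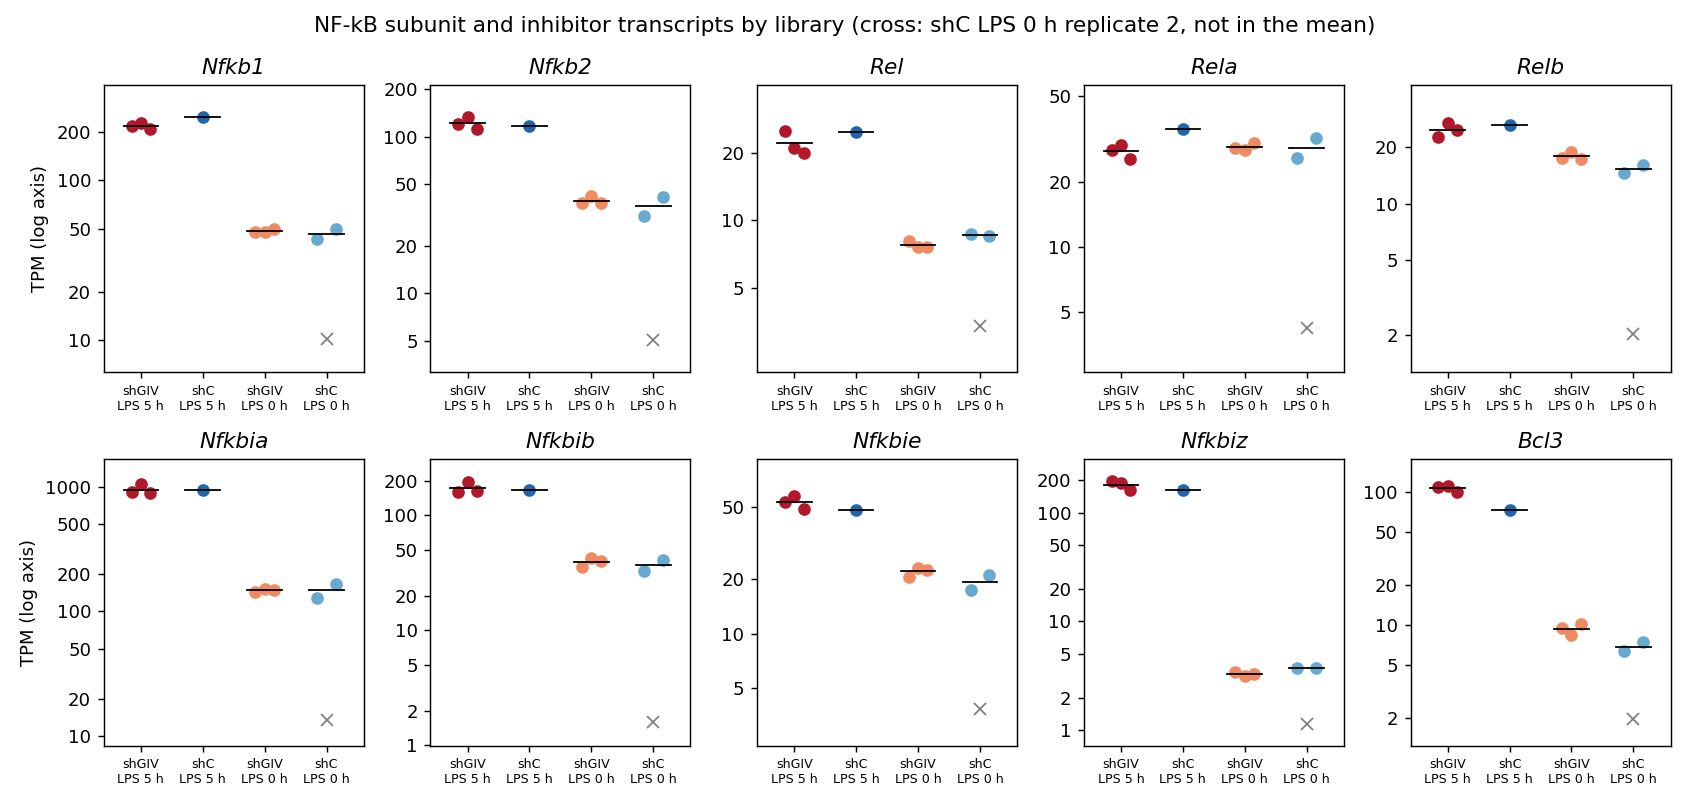
TPM (log axis) of each of the 10 genes by group, with 1 point per library, a bar at the group mean and a grey cross for the library shown apart. The 2 groups with LPS lie above both groups at 0 h for every gene except Rela, and the shGIV and shC points of the same state lie close together, with Bcl3 the most separated.

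The subunit genes differed in how far they moved. Nfkb1, which encodes p105 and p50, was at 221, 231 and 211 TPM in shGIV cells with LPS and 47.7, 47.7 and 49.8 TPM at 0 h, and at 248 TPM in shC cells with LPS and 43.1 and 49.6 TPM at 0 h. Every LPS library was above every 0 h library, and the rise was 2.17 ± 0.07 in shGIV cells (log2 ± SE, limma adjusted p = 7.1e-08) and 2.40 ± 0.10 in shC cells (limma adjusted p = 1.04e-06). Nfkb2, which encodes p100 and p52 of the slower non-canonical branch, was at 121, 134 and 113 TPM in shGIV cells with LPS and 37.6, 42.0 and 37.6 TPM at 0 h, and at 116 TPM in shC cells with LPS and 31.2 and 41.3 TPM at 0 h. Its states also stood apart, with a log2 rise of 1.62 ± 0.11 in shGIV and 1.66 ± 0.17 in shC cells. Exons of Nfkb2 overlap those of Psd on the opposite strand, which was at 13.9 to 19.7 TPM in shGIV and 17.2 TPM in shC cells with LPS, and 10.9 to 14.1 TPM in shGIV and 9.51 and 11.8 TPM in shC cells at 0 h. The libraries keep strand, but the counting setting is not stated, so reads of overlapping genes cannot be told apart here.

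Rel encodes c-Rel, a subunit most abundant in blood cells. It was at 24.9, 21.1 and 19.9 TPM in shGIV cells with LPS and 8.11, 7.61 and 7.64 TPM at 0 h, and at 24.8 TPM in shC cells with LPS and 8.67 and 8.51 TPM at 0 h. The rise was 1.38 ± 0.09 in shGIV and 1.43 ± 0.13 in shC cells on the log2 scale. Relb, the partner of p52, moved least of the called genes, at 22.8, 26.7 and 24.5 TPM in shGIV cells with LPS and 17.5, 18.9 and 17.3 TPM at 0 h, and at 26.1 TPM in shC cells with LPS and 14.5 and 16.1 TPM at 0 h. Its states did not overlap in either line, and the log2 rise was 0.44 ± 0.08 in shGIV cells (limma adjusted p = 0.00111) and 0.73 ± 0.12 in shC cells (limma adjusted p = 0.00109).

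Rela encodes p65, the main transactivating subunit of the canonical pathway. It was at 28.2, 29.5 and 25.6 TPM in shGIV cells with LPS and 28.8, 28.1 and 30.0 TPM at 0 h, so the 2 states overlapped. In shC cells it was at 35.0 TPM with LPS and at 25.7 and 31.7 TPM at 0 h, so the lone LPS library was the higher. Neither change passed the test on the TPM scale, at log2 -0.06 ± 0.09 in shGIV cells (limma adjusted p = 0.548, 95% interval -0.27 to 0.15) and 0.28 ± 0.14 in shC cells (limma adjusted p = 0.106, 95% interval -0.03 to 0.60). This call depended on scaling: with TMM scaling Rela was called higher in shGIV cells at log2 0.57 (limma adjusted p = 0.000126) and in shC cells at 0.77 (limma adjusted p = 0.000407), and with quantile normalization at 0.39 and 0.52. In shC cells the call also turned on the 0 h library of replicate 3, without which the change was 0.43 (limma adjusted p = 0.0188). Among all genes ordered by change, Rela stood at percentile 72.6 in shGIV and 79.7 in shC cells, below the other 9 genes, of which Relb was the lowest at 84.3 and 87.5.

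The promoters of Rel and Rela are shown because these partner subunits differed in their LPS change. They are the bases before the RefSeq transcript start (GRCm38.p6), without any base inside an annotated exon of the same gene. Exons of other genes were not checked in any window shown. The windows hold 249 bases for Rel at chr11:23770971-23771219 (minus strand) and 192 for Rela at chr19:5637291-5637482 (plus strand). Capitals mark overlapping matches to the kappaB consensus, the short site that NF-kB dimers bind, searched on both strands.
Rel promoter: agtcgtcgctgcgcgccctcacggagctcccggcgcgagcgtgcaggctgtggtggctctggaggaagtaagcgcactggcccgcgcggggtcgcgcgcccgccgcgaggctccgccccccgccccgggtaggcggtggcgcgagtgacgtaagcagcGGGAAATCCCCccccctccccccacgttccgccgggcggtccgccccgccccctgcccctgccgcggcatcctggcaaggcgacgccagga
Rela promoter: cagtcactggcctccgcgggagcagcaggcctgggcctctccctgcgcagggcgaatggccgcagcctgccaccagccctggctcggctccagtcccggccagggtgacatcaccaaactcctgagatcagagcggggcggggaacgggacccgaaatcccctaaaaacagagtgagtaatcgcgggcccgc
Rel held 2 overlapping matches from -92 to -82 before the start, and Rela held none in this window. A match is a run of letters and not a measured binding site.

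Because the subunits moved unequally, the make-up of the subunit transcripts differed between states. Nfkb1 made up 52.3% to 53.6% of the summed TPM of the 5 subunits in shGIV cells with LPS, against 33.1% to 35.0% at 0 h, and 55.2% in shC cells with LPS, against 35.0% and 33.7% at 0 h. Rela made up 6.50% to 6.74% in shGIV cells with LPS, against 19.5% to 21.1% at 0 h, and 7.77% in shC cells with LPS, against 20.9% and 21.6% at 0 h. No LPS library overlapped a 0 h library in either share. The ratio of Nfkb1 to Rela TPM was 7.83 to 8.24 in shGIV and 7.10 in shC cells with LPS, against 1.66 to 1.70 in shGIV and 1.68 and 1.56 in shC cells at 0 h. Rel kept a similar share, at 4.77% to 5.97% in shGIV and 5.50% in shC cells with LPS, and 5.28% to 5.81% in shGIV and 7.04% and 5.78% in shC cells at 0 h. These shares are ratios within a library, so they do not depend on library scaling, and no test was run on them.

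The cytoplasmic inhibitors rose in the order Nfkbia, Nfkbib and Nfkbie by estimate. Nfkbia, whose protein IkB-alpha is degraded within minutes of a stimulus and then made anew, was at 897, 1045 and 888 TPM in shGIV cells with LPS and 143.5, 152.5 and 148.5 TPM at 0 h, and at 933 TPM in shC cells with LPS and 129 and 167 TPM at 0 h. It was the most abundant of the 10 transcripts in every library, and its log2 rise was 2.66 ± 0.11 in shGIV cells (limma adjusted p = 2.44e-07) and 2.66 ± 0.16 in shC cells (limma adjusted p = 6.24e-06). Nfkbib, which encodes IkB-beta, was at 159, 194 and 162 TPM in shGIV cells with LPS and 35.3, 42.2 and 39.7 TPM at 0 h, and at 167 TPM in shC cells with LPS and 32.5 and 40.8 TPM at 0 h. The log2 rise of Nfkbib was 2.10 ± 0.12 in shGIV and 2.17 ± 0.17 in shC cells. Exons of Nfkbib overlap those of Sirt2 on the opposite strand, which was at 44.4 to 54.1 TPM in shGIV and 65.4 TPM in shC cells with LPS, and 42.0 to 47.2 TPM in shGIV and 47.9 and 51.7 TPM in shC cells at 0 h. Nfkbie, which encodes IkB-epsilon, was at 53.2, 57.8 and 48.9 TPM in shGIV cells with LPS and 20.6, 23.0 and 22.6 TPM at 0 h, and at 48.2 TPM in shC cells with LPS and 17.4 and 21.0 TPM at 0 h. Its log2 rise was 1.23 ± 0.09 in shGIV and 1.29 ± 0.14 in shC cells. For all 3 inhibitors every LPS library was above every 0 h library.

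The inhibitor promoters are printed because these transcripts rose together. The windows are 250 bases long and free of annotated exons of the same gene. They lie at chr12:55492648-55492897 for Nfkbia (minus strand), chr7:28766645-28766894 for Nfkbib (minus strand) and chr17:45555450-45555699 for Nfkbie (plus strand). The Nfkbib window lies inside the annotated gene, which spans 28758251 to 28767512. For Nfkbib and Nfkbie, the 20 bases that follow the window were not found in an annotated transcript of the gene. Capitals again mark the kappaB consensus matches, at -29 to -20 for Nfkbia and at -106 to -97 for Nfkbie, and Nfkbib held none.
Nfkbia promoter: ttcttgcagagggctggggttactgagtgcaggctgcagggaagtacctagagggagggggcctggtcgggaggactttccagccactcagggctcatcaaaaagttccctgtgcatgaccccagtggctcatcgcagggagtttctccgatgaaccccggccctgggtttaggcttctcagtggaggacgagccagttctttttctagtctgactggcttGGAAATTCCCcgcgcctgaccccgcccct
Nfkbib promoter: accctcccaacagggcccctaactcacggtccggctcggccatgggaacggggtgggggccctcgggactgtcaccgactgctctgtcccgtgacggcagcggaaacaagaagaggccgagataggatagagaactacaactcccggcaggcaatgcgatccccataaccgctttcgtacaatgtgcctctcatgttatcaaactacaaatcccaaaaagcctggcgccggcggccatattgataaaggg
Nfkbie promoter: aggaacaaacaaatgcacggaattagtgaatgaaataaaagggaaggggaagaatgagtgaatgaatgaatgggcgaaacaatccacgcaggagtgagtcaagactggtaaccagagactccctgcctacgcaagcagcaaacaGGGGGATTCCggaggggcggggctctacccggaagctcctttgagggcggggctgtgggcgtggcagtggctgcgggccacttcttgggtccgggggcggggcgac
Nfkb2 had several RefSeq starts, and 2 of its 3 windows overlap its own exons. All 250 bases of the first window and 234 bases of the third are exonic, and the matches in both lie in exons. First start means the first of the 3 by position, which lies inside the annotated gene. For the window without exons, the next 20 bases were not found in an annotated Nfkb2 transcript. The 5 matches of Nfkb2 are shown with short flanks, 1 match in capitals in each. They lie at chr19:46304688-46304717, chr19:46304689-46304718 (overlapping the one before), chr19:46304716-46304736, chr19:46305449-46305478 (the window without exons of Nfkb2) and chr19:46305695-46305724, on the plus strand.
Nfkb2 first start, upstream match: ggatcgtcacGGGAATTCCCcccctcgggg
Nfkb2 first start, overlapping match: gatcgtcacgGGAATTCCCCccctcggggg
Nfkb2 first start, downstream match: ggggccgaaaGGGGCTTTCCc
Nfkb2 window without exons: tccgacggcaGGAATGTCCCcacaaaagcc
Nfkb2 internal start: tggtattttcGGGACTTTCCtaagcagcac
Windows were found for 7 of the 10 genes (Nfkb1, Relb and Nfkbiz were not matched), 9 windows in all because Nfkb2 had 3. Of those 7 genes, 4 (Nfkb2, Rel, Nfkbia and Nfkbie) held at least 1 match, where 7.25% of all 32851 windows did. The members are counted by gene and the background by window, so the 2 figures are not in the same unit. The letters TATAAA, searched on both strands, stood in 0 of the 7 genes and in 12.4% of all windows. No match says only that these letters are not in the window.

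Summed over the 3 cytoplasmic inhibitors and divided by the summed subunits, the TPM ratio was 2.66, 2.94 and 2.79 in shGIV cells with LPS, against 1.43, 1.51 and 1.48 at 0 h, and 2.55 in shC cells with LPS, against 1.45 and 1.56 at 0 h. The states did not overlap in either line, and at 0 h the shGIV and shC libraries did. Nfkbia made up 80.6% to 80.9% of the inhibitor sum in shGIV and 81.2% in shC cells with LPS, and 70.1% to 72.0% in shGIV and 72.1% and 73.0% in shC cells at 0 h.

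**Figure D2:**
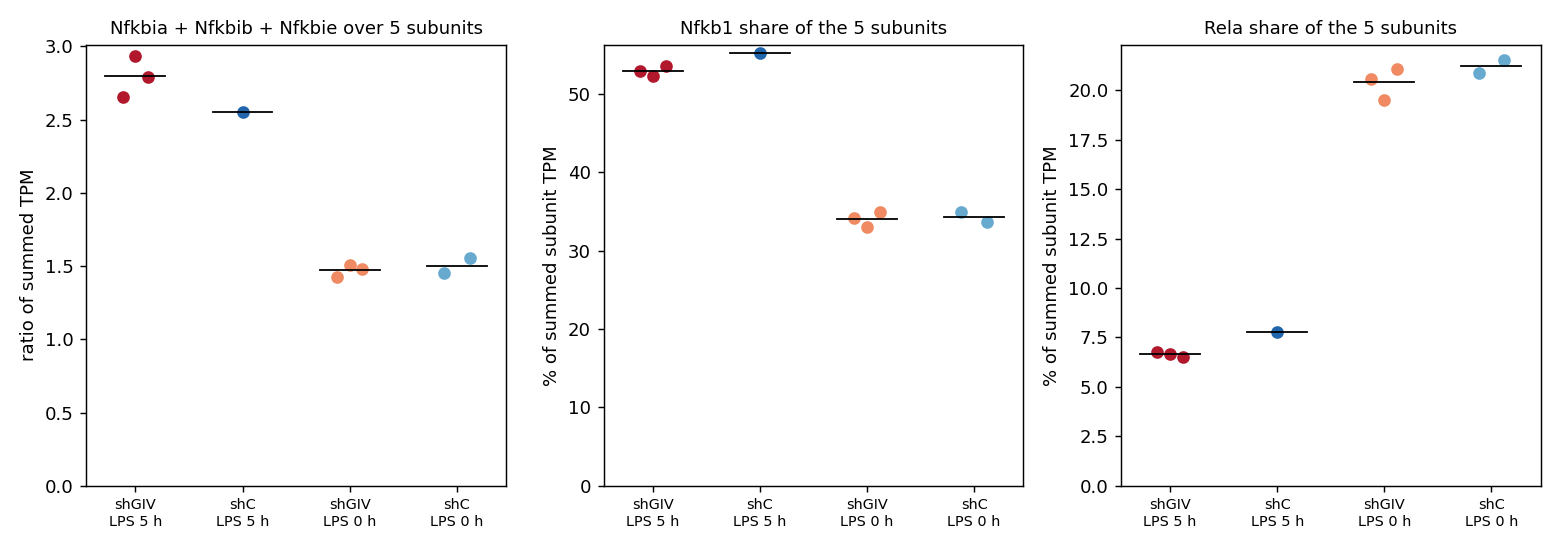
Ratio of summed inhibitor TPM to summed subunit TPM, and the shares of Nfkb1 and Rela in the subunit sum, with 1 point per library and a bar at the group mean. With LPS the ratio was 2.55 or more in each library and the Rela share 7.77% or less, whereas at 0 h the ratio was 1.56 or less and the share 19.5% or more.

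The nuclear inhibitors had the widest LPS change of the 10. Nfkbiz, the cofactor of p50 needed for genes such as Il6 and Lcn2 in mouse macrophages, was at 196, 185 and 163 TPM in shGIV cells with LPS and 3.42, 3.13 and 3.29 TPM at 0 h, and at 163 TPM in shC cells with LPS and 3.76 and 3.74 TPM at 0 h. It was the scarcest of the 10 transcripts at 0 h in every library and among the 4 most abundant with LPS. The log2 rise was 5.41 ± 0.08 in shGIV cells (limma adjusted p = 2.6e-09) and 5.11 ± 0.12 in shC cells (limma adjusted p = 7.61e-08), which placed Nfkbiz at rank 57 and 59 among all genes. Bcl3, which binds p50 and p52 homodimers, was at 111, 112 and 101 TPM in shGIV cells with LPS and 9.56, 8.39 and 10.3 TPM at 0 h, and at 74.4 TPM in shC cells with LPS and 6.33 and 7.41 TPM at 0 h. Its log2 rise was 3.39 ± 0.09 in shGIV and 3.26 ± 0.14 in shC cells. Only Nfkbiz had a larger estimate among the 10 in both lines. The 235 bases before the Bcl3 start outside any exon of Bcl3 lie at chr7:19822771-19823005 (minus strand). They are shown because Bcl3 rose steeply and held no kappaB consensus match there.
Bcl3 promoter: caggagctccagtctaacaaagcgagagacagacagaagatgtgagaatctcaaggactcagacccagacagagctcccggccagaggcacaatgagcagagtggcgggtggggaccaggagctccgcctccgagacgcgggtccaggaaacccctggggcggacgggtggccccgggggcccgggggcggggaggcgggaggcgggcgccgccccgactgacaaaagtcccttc
An antisense gene, Gm16175, overlaps Bcl3 and also had its higher values with LPS, at 9.48, 9.62 and 11.8 TPM in shGIV and 4.19 TPM in shC cells, and was listed at 0, 1.20 and 0.635 TPM in shGIV and 1.29 and 0.858 TPM in shC cells at 0 h. Its part in the Bcl3 values was not tested.

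**Figure D3:**
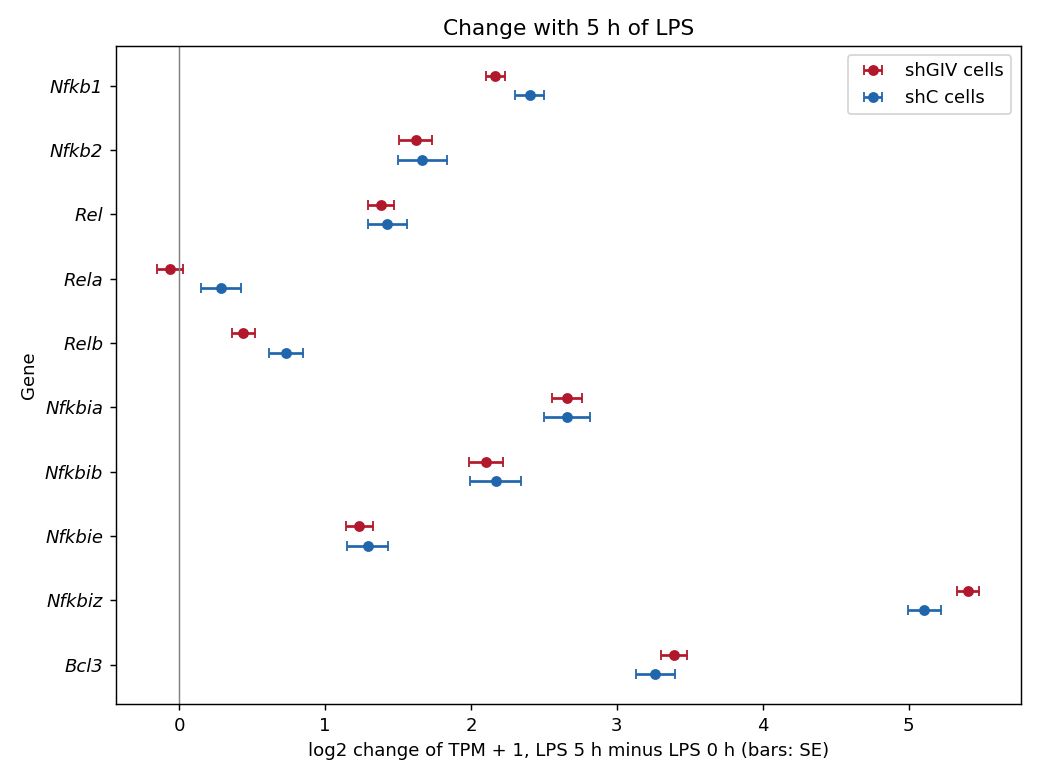
Log2 change of TPM + 1 with 5 h of LPS for the 10 genes, in shGIV cells and, drawn below each, in shC cells, with bars of 1 SE. Nfkbiz lies farthest to the right in both lines, Rela lies nearest to 0, and the 2 lines follow the same order at the top (Nfkbiz, Bcl3, Nfkbia).

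The order of the levels shifted with LPS. At 0 h it ran Nfkbia, Nfkb1, Nfkb2, Nfkbib, Rela, Nfkbie, Relb, Bcl3, Rel and Nfkbiz in shGIV cells by mean TPM, where Nfkb2 and Nfkbib (39.1 ± 2.5 and 39.1 ± 3.5 TPM, SD, n = 3) overlapped and the other neighbours did not. In shC cells at 0 h it was the same but for Nfkbib with Nfkb2, and Rel with Bcl3, which stood the other way round, and Nfkb2 overlapped both Nfkbib and Rela. With LPS the order in shGIV cells was Nfkbia, Nfkb1, Nfkbiz, Nfkbib, Nfkb2, Bcl3, Nfkbie, Rela, Relb and Rel. There Nfkbiz overlapped Nfkbib, and Rela, Relb and Rel overlapped their neighbours at 27.7 ± 2.0, 24.7 ± 2.0 and 22.0 ± 2.6 TPM (SD, n = 3). The lone shC library with LPS had the same order except that Nfkbib stood above Nfkbiz.

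GIV depletion left no called difference in these 10 genes by limma, either with LPS or at 0 h. With LPS, 0.890% of all genes were called higher and 4.38% lower in shGIV than in shC cells, and at 0 h 0.489% and 0.729%. With TMM scaling the shares with LPS were 2.26% and 2.88%, and with quantile normalization 1.66% and 2.22%. At an unadjusted p under 0.05, Bcl3 was higher and Rela lower with LPS, and Relb and Bcl3 were higher at 0 h. The share of all genes at that unadjusted threshold is not given, here or for the gene lists below, so these counts have no background. The median log2 difference of the 10 genes was 0.02 with LPS, where that of all genes was -0.12, and 0.08 at 0 h, where that of all genes was 0.02. With TMM scaling the median of all genes with LPS moved to 0 and that of the 10 genes to 0.16.

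Bcl3 had the largest estimate of the 10 in both states. Its 3 shGIV libraries with LPS (101 to 112 TPM) were all above the shC library (74.4 TPM), and its 3 shGIV libraries at 0 h (8.39 to 10.3 TPM) were all above the 2 shC libraries (6.33 and 7.41 TPM). The log2 difference was 0.53 ± 0.13 with LPS (95% interval 0.24 to 0.83, limma adjusted p = 0.0577) and 0.40 ± 0.10 at 0 h (95% interval 0.17 to 0.64, limma adjusted p = 0.147). Libraries of the same set number gave 0.59 with LPS in set 2, and 0.53 and 0.42 at 0 h in sets 1 and 3. With LPS the call changed under 6 alternatives, each of which put Bcl3 past the threshold: TMM scaling (0.68, limma adjusted p = 0.0143), quantile normalization (0.61, limma adjusted p = 0.0254), rescaling after mitochondrial genes and the 100 most abundant were removed (0.65, limma adjusted p = 0.0197), a filter at log2 of 3 (0.53, limma adjusted p = 0.0381), and leaving out shC at 0 h replicate 1 (limma adjusted p = 0.0474) or replicate 3 (limma adjusted p = 0.0478). Gm16175 was higher in shGIV than in shC cells with LPS by its values above, and its part in the difference was not tested.

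Rela differed with LPS by log2 -0.33 ± 0.13 (95% interval -0.62 to -0.03, limma adjusted p = 0.191), with the 3 shGIV libraries (25.6 to 29.5 TPM) below the shC library (35.0 TPM), and by 0.02 ± 0.10 at 0 h, where the groups overlapped. Relb differed at 0 h by 0.22 ± 0.09 (95% interval 0.01 to 0.42, limma adjusted p = 0.378) with groups apart, and with LPS by -0.08 ± 0.11 with groups that overlapped. Nfkbia, the gene most often used to read NF-kB feedback, differed by 0.01 ± 0.15 with LPS (95% interval -0.33 to 0.36) and 0.01 ± 0.12 at 0 h (95% interval -0.26 to 0.29). The intervals of the other 6 genes included 0 in both states and lay between -0.46 and 0.44. With LPS the groups did not overlap for 3 genes higher (Nfkbie, Nfkbiz and Bcl3) and 2 lower (Nfkb1 and Rela) in shGIV cells, where 15.8% of all genes did not overlap higher and 48.7% lower. At 0 h they did not overlap for 2 higher (Relb and Bcl3) and 2 lower (Rel and Nfkbiz), against 15.6% and 12.7% of all genes. The lowest shGIV library for Nfkbiz with LPS and the shC library were the same to the digits given above.

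**Figure D4:**
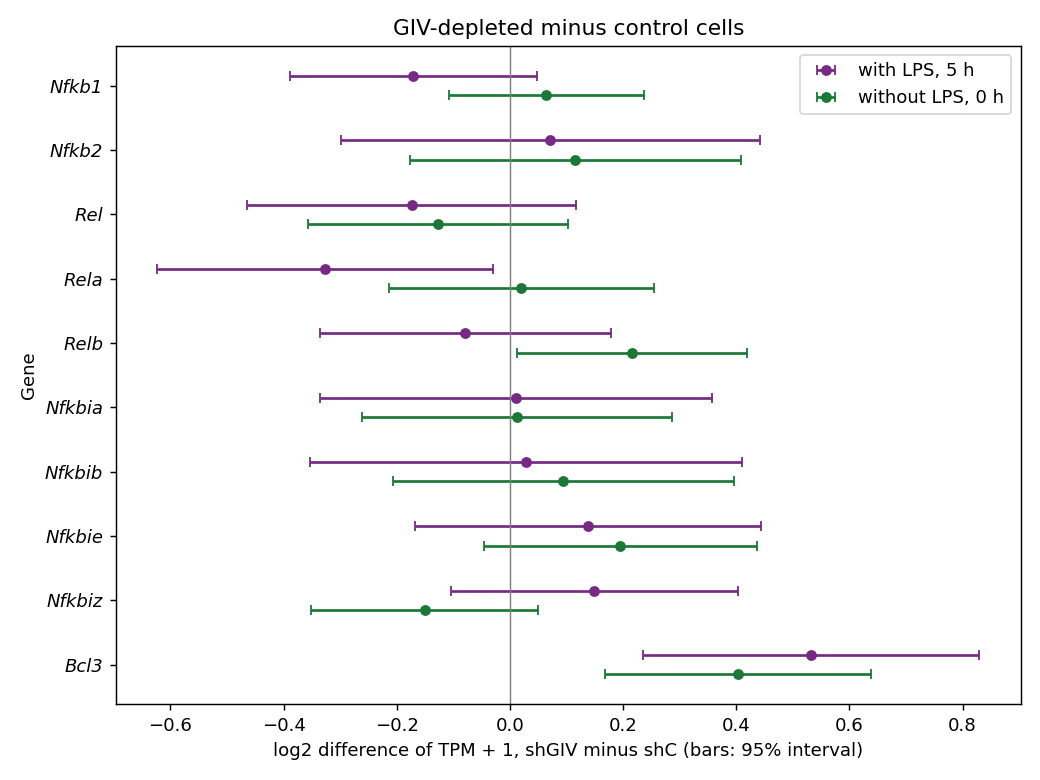
Log2 difference of TPM + 1, shGIV minus shC, for the 10 genes with LPS and, drawn below each, without LPS, with 95% intervals. The intervals of Bcl3 lie above 0 in both states, those of Rela with LPS and Relb without LPS end near 0, and all others include 0.

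The difference between the LPS responses, shGIV minus shC, passed the test for none of the 10 genes by limma. None of the 10 had an unadjusted p under 0.05 either. Over all genes 0.0948% were called higher and 0.131% lower, that is 13 and 18 genes, which became 51 and 43 with TMM scaling and 25 and 14 with quantile normalization. The widest estimates were Rela at log2 -0.35 ± 0.16 (limma adjusted p = 0.325), Nfkbiz at 0.30 ± 0.14 (limma adjusted p = 0.319), Relb at -0.29 ± 0.14 (limma adjusted p = 0.331) and Nfkb1 at -0.24 ± 0.12 (limma adjusted p = 0.358). Their 95% intervals ran from -0.73 to 0.03 for Rela, from -0.02 to 0.62 for Nfkbiz, from -0.62 to 0.03 for Relb and from -0.51 to 0.04 for Nfkb1. The estimate for Nfkbia was -0.00091 ± 0.19, with an interval from -0.44 to 0.44. A p that misses the threshold does not show that the lines respond alike, and the shC arm with LPS rests on 1 library, whose spread was taken from the other groups.

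Of 38 kinases, adaptors and regulators of the NF-kB pathway, LPS raised 17 and lowered 14 in shGIV cells, and raised 16 and lowered 12 in shC cells. Over all genes LPS raised 15.8% and lowered 59.7% in shGIV cells, and raised 14.8% and lowered 44.1% in shC cells. The median log2 change of the 38 was 0.08 in shGIV and 0.12 in shC cells, against -0.54 and -0.40 over all genes. With TMM scaling the counts were 27 higher and 6 lower in shGIV and 24 higher and 6 lower in shC cells. The shares of all genes were then 34.1% and 33.0% in shGIV and 28.4% and 24.9% in shC cells. With the library shown apart in the fit, 5 of the 38 were called higher and 0 lower in each line. In that fit 5.64% of all genes were called higher in shGIV and 3.07% in shC cells. The largest rises were those of the ubiquitin-editing feedback inhibitor Tnfaip3 (4.39 ± 0.10 in shGIV and 4.56 ± 0.15 in shC cells), the non-canonical IkB kinase Ikbke (3.55 ± 0.07 and 3.57 ± 0.10), the adaptor Traf1 (3.15 ± 0.11 and 3.47 ± 0.16) and the paracaspase Malt1 (2.94 ± 0.08 and 3.14 ± 0.13). Traf5 stood on 2 identifiers with the same values and was counted once. None of the 38 was called between shGIV and shC cells with LPS, at 0 h or in the difference of responses by limma. At 0 h Traf1 was called higher with TMM scaling, quantile normalization, rescaling, the filter at log2 of 3 or without shC at 0 h replicate 3. With LPS Malt1 was called lower without shGIV with LPS replicate 1. At an unadjusted p under 0.05 the counts were 1 higher and 2 lower with LPS, 4 higher and 0 lower at 0 h, and 1 higher and 4 lower in the difference. Tnip1, an A20-binding inhibitor with the highest mean log2 level of the list over the 9 libraries, differed by -0.29 ± 0.14 with LPS (limma adjusted p = 0.283) and 0.16 ± 0.11 at 0 h (limma adjusted p = 0.646). Commd1, next by that level, differed by -0.11 ± 0.09 with LPS (limma adjusted p = 0.521) and -0.15 ± 0.07 at 0 h (limma adjusted p = 0.467).

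Of 40 known NF-kB target genes, 35 were tested, and in both lines LPS raised 33 of them and lowered 2, Ccnd1 and Plau. Over all genes LPS raised 15.8% and lowered 59.7% in shGIV cells, and raised 14.8% and lowered 44.1% in shC cells. The filter bears on the target counts. Of the 35, 8 reached it through the LPS libraries, where they are high (Bcl2a1a, Csf2, Csf3, Il1a, Il1b, Il6, Lcn2 and Nos2). Another 5 were left out as low (Cxcl1, Cxcl3, Il12b, Il23a and Vcam1). With no filter all 40 entered, and LPS raised 37 and lowered 2 in shGIV cells and raised 36 and lowered 2 in shC cells. The 4 largest changes in shGIV cells were those of the cytokines Il1b (12.02 ± 0.16) and Il1a (10.34 ± 0.07), the granulocyte growth factor Csf3 (10.22 ± 0.10) and the chemokine Ccl5 (9.71 ± 0.16). In shC cells they were Il1b (11.37 ± 0.25), Csf3 (10.94 ± 0.15), the chemokine Cxcl2 (10.11 ± 0.20) and Ccl5 (9.92 ± 0.24). Il1a, Il1b and Csf3 were at 1.09 TPM or less at 0 h. Their log2 changes therefore depend on the 1 added to each value.

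Between the lines, limma called 3 targets higher and 3 lower in shGIV cells with LPS (Bcl2a1a, Il1a and Mmp9 higher, Ccl2, Plau and Tnf lower) and 3 higher (Cd40, Ier3 and Mmp9) and 2 lower (Ccl2 and Plau) at 0 h. Of all genes, 0.890% were called higher and 4.38% lower with LPS, and 0.489% and 0.729% at 0 h. With TMM scaling the target counts were 6 and 3 with LPS and 5 and 2 at 0 h. The shares of all genes were then 2.26% and 2.88% with LPS and 0.715% and 1.04% at 0 h. At 0 h the target counts fell to 1 higher (Mmp9) and 1 lower (Ccl2) with the set number as a block, with no filter and with no variance trend. The same counts were left without shGIV with LPS replicate 1 and without any 1 of the 3 shGIV libraries at 0 h. They were 3 and 1 without shGIV with LPS replicate 2, and 2 and 1 without its replicate 3. Without shC at 0 h replicate 1 they were 1 and 2, and without replicate 3 they were 2 and 1. With only the groups compared in the fit no target was called at 0 h, and with the library shown apart in the fit none was called in either state. The monocyte chemokine Ccl2 was at 488, 488 and 456 TPM in shGIV cells with LPS, against 1820 TPM in shC cells, a log2 difference of -1.93 ± 0.19, and at 1.64, 2.48 and 2.99 TPM in shGIV cells at 0 h, against 8.77 and 8.43 TPM in shC cells, a difference of -1.53 ± 0.15. The matrix protease Mmp9 differed by 1.27 ± 0.12 with LPS and 0.89 ± 0.09 at 0 h, and the plasminogen activator Plau by -1.30 ± 0.11 with LPS. Bcl2a1a was listed at 0 at 0 h and at 28.3, 29.0 and 26.1 TPM in shGIV cells with LPS, against 6.51 TPM in shC cells, and is uncertain because near-identical copies of the gene share reads. In the difference of responses 2 targets were called higher, Bcl2a1a and Il1a (1.09 ± 0.12, limma adjusted p = 0.0281). Both genes passed the filter through the LPS libraries and were at or near 0 at 0 h. Their difference of responses therefore repeats the difference with LPS (log2 1.94 in both for Bcl2a1a) and is no further result. It rests on the same lone shC library with LPS. Both calls were lost with the set number as a block, with a pseudocount of 0.1 and with the library shown apart in the fit. They were also lost without shGIV with LPS replicate 1 or 2 and without shGIV at 0 h replicate 2 or 3. That of Bcl2a1a was the only one left without shGIV with LPS replicate 3, shGIV at 0 h replicate 1, or shC at 0 h replicate 1 or 3. With TMM scaling, with rescaling and with the filter at log2 of 3, Plau and Tnf were called lower as well. With no filter Ccnd1 and Tnf were, and with the robust fit Tnf was.

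Of 6 genes known to need Nfkbiz in mouse macrophages, 5 were tested. All 5 were called higher with LPS in both lines, where 15.8% of all genes were in shGIV and 14.8% in shC cells. For 4 of the 5 (Csf2, Edn1, Il6 and Lcn2) the filter was reached through the LPS libraries, so that direction was fixed by it. The size of the change depends on the pseudocount. The median of the 5 was 4.12 in shGIV and 4.83 in shC cells, and 7.08 and 7.94 with a pseudocount of 0.1. With no filter 6 of the 6 were called higher in shGIV and 5 in shC cells. Lcn2, an iron-binding defence protein, changed by log2 8.35 ± 0.07 in shGIV and 7.96 ± 0.10 in shC cells. The cytokine Il6 changed by 8.05 ± 0.09 in shGIV and 7.51 ± 0.14 in shC cells. Edn1, the precursor of the vasoconstrictor endothelin, changed by 4.12 ± 0.11 in shGIV and 4.83 ± 0.17 in shC cells. The growth factor Csf2 changed by 3.85 ± 0.12 in shGIV and 4.29 ± 0.18 in shC cells.

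None of the 5 was called between the lines in either state by limma, with 2 higher and 3 lower at an unadjusted p under 0.05 with LPS and 0 higher and 1 lower (Ebi3) at 0 h. With LPS the estimates went both ways. They were negative for Edn1 (-0.66 ± 0.16, limma adjusted p = 0.0562), Csf2 (-0.43 ± 0.17, limma adjusted p = 0.191) and Ebi3 (-0.34 ± 0.13, limma adjusted p = 0.187). They were positive for Il6 (0.51 ± 0.13, limma adjusted p = 0.0726) and Lcn2 (0.34 ± 0.10, limma adjusted p = 0.09). Il6 was called higher with TMM scaling, quantile normalization and rescaling, and Lcn2 with TMM scaling, whereas Edn1 was called lower with no variance trend and with the robust fit.

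Over the 9 libraries, the genes most like each of the 10 were found by Pearson correlation of log2 levels among 9234 candidates. For the 9 genes that rose, 868 to 1235 candidates had r of 0.9 or more, since the libraries fall into 2 states and any gene with an LPS step resembles them. Trex1, which encodes a DNA exonuclease, ranked top for both Nfkbia (r = 0.9996) and Nfkbib (r = 0.9989), and Plekhn1 came next for both Nfkbib (r = 0.9988) and Nfkb2 (r = 0.9978). Cd274, which encodes the checkpoint ligand PD-L1, ranked top for Nfkb1 (r = 0.9994), and the transcription repressor gene Mxd1 ranked top for Nfkbiz (r = 0.9997). Rela stood apart, with 11 candidates at r of 0.9 or more, led by Cdk12 (r = 0.951), Itgb2 (r = 0.924) and Abr (r = 0.924).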

How the data were processed

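Stranded libraries of total RNA, depleted of ribosomal RNA, were read from both ends at 100 bases, per the labels. The deposited log2 values are log2(TPM + 1) of each gene, as their sum per library after back-transformation shows. The authors used kallisto 0.45.0 and GRCm38, per the submitters' processing notes. The annotation release, the summing of transcripts and any strand setting are not given in the sources used here, and TPM keeps no depth. Of 11 labelled samples 10 had a column, and no 2 were identical. The members and lists were chosen with earlier results of these data known.

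The test was limma 3.58.1 (R 4.3.3) on 9 libraries, with 1 model of the 4 groups, moderated variances with a mean-variance trend and Benjamini-Hochberg adjustment over all 13711 genes at log2 of 1 or more in at least 2 libraries. A call is an adjusted p under 0.05. The fit was tried on simulated data in which only the LPS change in shGIV cells was checked. The comparisons between lines were not checked in that way. Replicate 2 of shC at 0 h was left out because its composition differed. Named genes are Ccdc88a, the 10 genes, the 4 largest calls of each list (or the 2 most abundant genes) and the 3 most alike genes. Positions came from GENCODE M21 and promoters from RefSeq. Alternatives concerned scaling, filter, pseudocount, variance, the set number, the samples fitted and each library left out. Python 3.11.15, numpy 2.4.6, pandas 2.3.3 and matplotlib 3.10.9 made tables and figures.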

Additional observations from a re-analysis of the deposited data

How the results depend on the processing

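With shC at 0 h replicate 2 in the fit, 3 of the 10 genes were called higher with LPS in shGIV cells and 2 in shC cells, where 9 were without it. In shGIV cells the log2 changes were the same by construction, and only the shared spread differed. All other alternatives kept 9 or 10 higher in both lines. Of the shGIV against shC comparisons, 1 member (Bcl3 with LPS) was called under TMM scaling, quantile normalization, rescaling and the filter at log2 of 3, and 0 to 1 when a library was left out. Of all genes, 2.26% were called higher in shGIV cells with LPS under TMM scaling and 1.66% under quantile normalization. With rescaling the share was 1.71%, and with the filter at log2 of 3 it was 1.14%. Libraries of the same set number correlated weakly (correlations of deviations 0.021 to 0.097), though each library correlated best with its own number. Against shC cells at 0 h only 2 sets were compared, so own and other values mirror each other by construction. With the set number as a replicate block, 9 members were higher with LPS in both lines and 0 were called between lines. In that fit LPS raised 15.8% of all genes in shGIV and 13% in shC cells. Over all genes the calls between lines with LPS were 22 higher and 61 lower in shGIV, against 122 and 600 without the block. At 0 h they were 23 and 35, against 67 and 100, and in the difference of responses 0 and 0, against 13 and 18. With shC at 0 h replicate 2 in the fit, LPS raised 785 and lowered 1451 of all genes in shGIV cells, against 2161 and 8188, and 428 and 53 in shC cells, against 2025 and 6050, and limma called 0 genes in the other comparisons. The alternatives without that library, the block among them, gave 1667 to 4670 higher and 4530 to 8703 lower with LPS in shGIV cells. In shC cells they gave 1362 to 3897 and 3413 to 6571. Between lines they gave 22 to 310 and 34 to 788 with LPS, and 21 to 121 and 26 to 188 at 0 h. In the difference they gave 0 to 63 and 0 to 297.

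Signs changed as follows, and only Rela under TMM scaling and quantile normalization was called. For Rela with LPS in shGIV cells the change was 0.57 with TMM scaling, 0.39 with quantile normalization and 0.046 rescaled. Differences of responses turned positive for Nfkb2 (0.11 TMM, 0.10 quantile, 0.11 rescaled, 0.13 block), Nfkbia (0.16, 0.14, 0.15 and 0.14), Nfkbib (0.091, 0.070, 0.085 and 0.16), Nfkbie (0.10, 0.082, 0.091 and 0.075) and Rel (0.10 TMM, 0.11 quantile, 0.10 rescaled). With LPS, Relb between lines was 0.061 with TMM, 0.072 with quantile, 0.034 rescaled and 0.015 with the block. At 0 h, Nfkbia was -0.00085 with TMM, -0.041 with quantile, -0.024 rescaled and -0.036 with the block, and Rela -0.0020 with quantile and -0.015 rescaled. With shC at 0 h replicate 2 in the fit, the difference of responses was -0.34 for Bcl3 and -0.080 for Nfkbiz. Without that library these were 0.13 and 0.30. Between lines at 0 h, Nfkbiz was 0.23 and Rel 0.25 with it, against -0.15 and -0.13 without it. Leaving out each library gave differences of responses from -0.24 to 0.15 for Nfkb2, -0.19 to 0.19 for Nfkbia, -0.22 to 0.092 for Nfkbib, -0.19 to 0.073 for Nfkbie and -0.14 to 0.019 for Rel. Between lines with LPS it gave -0.064 to 0.052 for Nfkbia and -0.063 to 0.081 for Nfkbib. At 0 h it gave -0.036 to 0.16 for Nfkb1, -0.081 to 0.31 for Nfkb2, -0.17 to 0.20 for Nfkbia, -0.064 to 0.25 for Nfkbib and -0.13 to 0.17 for Rela. The causes were not tested. Without the lone shC library with LPS no comparison that needs it has a value, and depth is unknown.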
